A study of Bos taurus with 3 samples.

Results

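Expression of the Wnt ligands, receptors and secreted antagonists SFRP1, SFRP2, SFRP4, FRZB, DKK3, WIF1, WNT2B, WNT5A, FZD1 and FZD2 was compared between fetal Gonadal Ridge Epithelial-Like (GREL) cells and adult ovarian fibroblasts. A gene was followed where at least 1 probe set of the array carried its symbol and no other. This gave 7 of the 10 genes, read by 11 of 24016 probe sets, among 9155 genes in all. WIF1, WNT5A and FZD2 had no such probe set and were not analysed here. A gene read by several probe sets was represented by the probe set with the highest mean over the 3 arrays. For the Wnt genes whose values are given, the other probe sets stand beside it.

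RNA came from 3 bovine (Bos taurus) cultures, each hybridized to 1 Affymetrix GeneChip Bovine Genome Array. GREL isolates 1 and 2 were polygonal cells from fetal ovaries, labelled as 130 days of gestation, although the methods of the study put 1 of them slightly earlier. The study's text calls them clonally enriched. The third culture held fibroblastic cells from the medullar stroma of 1 adult ovary, from an animal over 1 year of age. The groups therefore differ in age, tissue region and cell form at once, and these cannot be told apart. No genetic change or drug was applied to either group.

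Wnt proteins are secreted lipid-modified glycoproteins that bind Frizzled receptors at the cell surface. With the co-receptors LRP5 and LRP6 this binding stabilises beta-catenin, which enters the nucleus and works with transcription factors of the TCF/LEF family. Other Wnt proteins signal through ROR and RYK receptors without beta-catenin. Secreted frizzled-related proteins (SFRP1, SFRP2, SFRP4 and FRZB) and WIF1 bind Wnt proteins outside the cell, whereas Dickkopf proteins such as DKK1 act on the LRP co-receptors. In the fetal gonad WNT4 and RSPO1 act on the ovarian side of sex determination.

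The values are log2 intensities in steps of 0.1, and the median over all probe sets lay at 2.9 on the fibroblast array, 3.0 on that of isolate 1 and 2.9 on that of isolate 2. No detection calls were given, so a background level was set as the 95th percentile of 62 genes of other organs, at 6.19 on the fibroblast array, 7.06 on the array of isolate 1 and 6.76 on that of isolate 2. This level rests on the rank of a few bright genes of the 62, of which 4 lay above it on each array. POMC was among them, at 11.7, 11.6 and 11.6. A lower background level, their 90th percentile, was at 5.18, 5.35 and 5.24. A value below the level does not show that a gene is silent. Marker genes were read beside the labels. Of 14 markers of stroma and fibroblasts 10 were lower in both isolates by any amount, and of 11 epithelial markers 10 were higher in both. The shares of all genes were 33.5% lower in both and 41.6% higher in both. However, 9 of the 11 epithelial markers and 3 of the 14 stromal ones lay above the background level on no array. The epithelial markers KRT7, KRT19, PKP2 and LSR are also in the study's list of genes over 3-fold higher in these same arrays. Those genes are therefore no independent check of the labels. No marker of endothelium (8 measured), blood cells (9) or germ cells (5) lay above the background level on any array. Of 8 granulosa cell markers, FOXL2, AMH, CYP19A1, FSHR, HSD17B1 and INHA lay below the background level on every array. FST was above it on every array (9.6, 8.6 and 8.8 for the fibroblasts and isolates 1 and 2) and INHBA on 2 arrays (6.4, 7.3 and 6.5).

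Of the 7 genes, SFRP4 alone was over 3-fold different from the fibroblasts in both isolates, and it was lower. Over all 9155 genes 2.38% were over 3-fold lower in both isolates and 2.38% over 3-fold higher, and none of the 7 was over 3-fold higher. SFRP2 was lower in both isolates by over 2-fold (5.8% of all genes were over 2-fold higher and 4.78% over 2-fold lower). FZD1 was higher in both by unequal amounts. At the probe set of highest mean SFRP1, FRZB, DKK3 and WNT2B did not differ in the same direction in both isolates. The median log2 difference was -0.15 for the 7 genes and 0.05 for all genes, and that of the 7 was -0.40 without isolate 1 and -0.30 without isolate 2. In 5 of the 7 the mean difference was smaller than the gap between the isolates, which held for 30.0% of all genes.

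The groups were tested with limma over all 24016 probe sets with Benjamini-Hochberg adjustment. Because the fibroblasts had 1 array, the spread came from the 2 isolates alone and measures only the variation between them. No probe set passed an adjusted p under 0.05 in either direction (0%), while 9.8% were higher and 11.1% lower at an unadjusted p under 0.05. With a robust prior 571 probe sets were called higher and 618 lower, none of them of the 7 genes. Of the 7 genes SFRP2 and SFRP4 were under that unadjusted value. An exact permutation test of 2 arrays against 1 cannot go below p = 0.333.

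**Figure D1:**
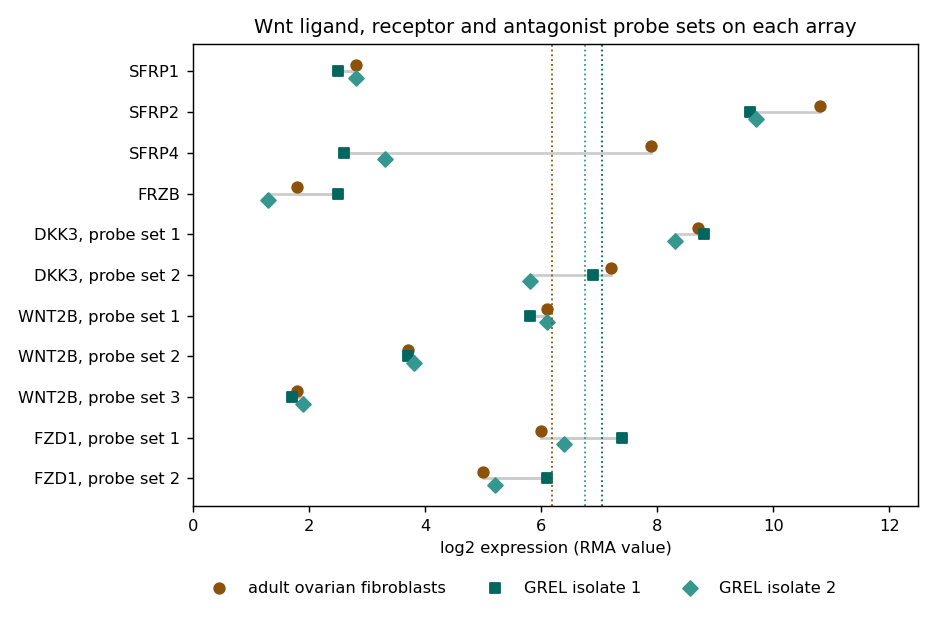
Log2 expression (horizontal axis, RMA value) of the 11 probe sets of the 7 genes with 1 array per culture: circles for the adult fibroblasts, squares for GREL isolate 1, diamonds for GREL isolate 2 and no error bars. Probe set 1 is the one of highest mean, and dotted lines of the same colours mark the background level of each array. SFRP4 lies at 7.9 for the fibroblasts against 2.6 and 3.3 for isolates 1 and 2, and FZD1 is highest in isolate 1 at both of its probe sets.

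SFRP4 is a secreted frizzled-related protein with a Frizzled-like cysteine-rich domain, and is known from ovarian follicles and the corpus luteum. Its log2 value was 7.9 in the fibroblasts, 2.6 in isolate 1 and 3.3 in isolate 2. The fibroblasts lay above the background level and both isolates far below it, near the median of the whole array. As measured, the isolates were 39.4-fold and 24.3-fold lower. Since the isolates were below the background level, a bound was also taken: SFRP4 was at least 1.99-fold lower when the isolates are set at the background level, and at least 6.08-fold lower at the lower background level.

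The isolates averaged -4.95 on the log2 scale relative to the fibroblasts, with a standard error of 0.49. In limma the adjusted p = 0.195, which did not pass the test. The isolates were 0.7 apart. Their readings are not above background, so the size of the difference is open beyond the bound, which at the background level is less than 3-fold. SFRP4 is read by 1 probe set, so no second reading of it was available.

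Of the 14 markers of stroma 10 were lower in both isolates by any amount, and 4 (VIM, THY1, POSTN and S100A4) did not differ in the same direction in both. TCF21 and PDGFRA were over 3-fold lower in both isolates, and the count over 3-fold higher was 0. Their summed linear signal was 14455 in the fibroblasts, 9993 in isolate 1 and 6947 in isolate 2. NR2F2, which encodes the stromal transcription factor COUP-TFII, was at 7.7 in the fibroblasts, 6.5 in isolate 1 and 6.0 in isolate 2. Of the 14, 7 lay above the background level on all 3 arrays and 3 on none. In bulk RNA fewer cells of a type and less RNA per cell cannot be told apart. The part of cell makeup in the SFRP4 difference was not tested.

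The genes most like SFRP4 were sought by their log2 differences from the fibroblasts in the 2 isolates, over 9154 other genes. The nearest was MYOC, a secreted glycoprotein with an olfactomedin domain, with values of 6.3 in the fibroblasts, 1.7 in isolate 1 and 1.6 in isolate 2, within 0.7 of SFRP4 in both differences. C4A, a complement component with near-identical copies, was at 8.7, 4.1 and 4.9 in the same order. FABP4, a fatty acid carrier of fat cells, was at 6.7, 1.6 and 2.9. Both lay within 0.8. With 2 differences per gene this likeness rests on the shared fibroblast array and on isolate readings below the background level in all 4 genes, so its order is uncertain.

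**Figure D2:**
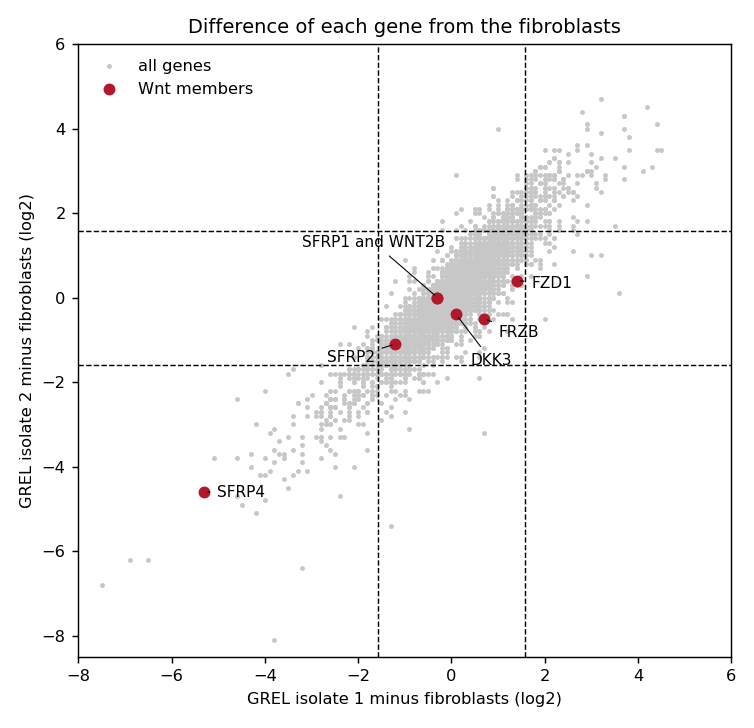
Log2 difference from the adult fibroblasts in GREL isolate 1 (horizontal axis) and GREL isolate 2 (vertical axis) for 9155 genes (grey points) and the 7 Wnt genes (red points). Dashed lines mark 3-fold, and SFRP4, at -5.3 and -4.6, is the red point beyond them in both isolates. All points share the 1 fibroblast array, which stretches the cloud along the diagonal.

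SFRP2, a second frizzled-related protein and a common product of fibroblasts, was the brightest reading of its probe set in the fibroblasts at 10.8, against 9.6 in isolate 1 and 9.7 in isolate 2. All 3 values lay well above the background level, so this difference does not depend on dim signal. The isolates were 2.30-fold and 2.14-fold lower, which averages to -1.15 on the log2 scale (limma standard error 0.07, adjusted p = 0.182). The small error comes from isolates that lay 0.1 apart. Across all genes 156 (1.70%) had a gap between the isolates of at least 1.15. Of the 1378 genes above the background level on all 3 arrays, 2.98% were over 2-fold lower in both isolates.

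SFRP1, which shares the same domain and binds several Wnt proteins, was at 2.8 in the fibroblasts, 2.5 in isolate 1 and 2.8 in isolate 2. FRZB, also called SFRP3, was at 1.8 in the fibroblasts, 2.5 in isolate 1 and 1.3 in isolate 2. Both genes lay below the background level and around or below the array median in every culture. The 2 isolates lay on either side of the fibroblasts for FRZB, 1.2 apart, a gap reached by 1.70% of genes. The adjusted p in limma was 0.683 for SFRP1 and 0.971 for FRZB. No statement on SFRP1 or FRZB can be made from readings at this level.

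DKK3 is a divergent member of the Dickkopf family, which differs from DKK1 in not acting as a typical LRP antagonist. Its brighter probe set was at 8.7 in the fibroblasts, 8.8 in isolate 1 and 8.3 in isolate 2, above the background level throughout. The isolates averaged -0.15 relative to the fibroblasts (limma standard error 0.35, adjusted p = 0.816), which is smaller than the 0.5 between the isolates. The second probe set was at 7.2, 6.9 and 5.8 in the same order, lower in both isolates. Both probe sets placed isolate 2 lowest, by 0.5 and by 1.1 below isolate 1. Of the 14 markers of stroma 11 were also lower in isolate 2 than in isolate 1, 2 (POSTN and S100A4) were higher and 1 was equal. Of all 9155 genes 3173 were lower in isolate 2 than in isolate 1, 4706 were higher and 1276 were equal. The part of the stromal markers in the DKK3 readings was not tested.

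WNT2B, a ligand of the beta-catenin branch, was the 1 ligand of the group with a probe set. Its brightest probe set was at 6.1 in the fibroblasts, 5.8 in isolate 1 and 6.1 in isolate 2, just below the background level of the fibroblasts and above the lower background level on every array. The other probe sets lay at 3.7 to 3.8 and at 1.7 to 1.9. At none of the 3 did any isolate differ from the fibroblasts by more than 0.3, and the adjusted p in limma at the brightest was 0.683.

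FZD1, a Frizzled receptor, was at 6.0 in the fibroblasts, 7.4 in isolate 1 and 6.4 in isolate 2. Only isolate 1 exceeded its background level, whereas all 3 values exceeded the lower background level. Isolate 1 was 2.64-fold and isolate 2 was 1.32-fold higher than the fibroblasts, which averages to 0.90 on the log2 scale (limma standard error 0.70, adjusted p = 0.542). The isolates were 1.0 apart, which is more than the mean difference. The second probe set gave 5.0, 6.1 and 5.2, the same order of the cultures. A gap between isolates of at least 1.0 occurred in 2.99% of all genes.

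**Figure D3:**
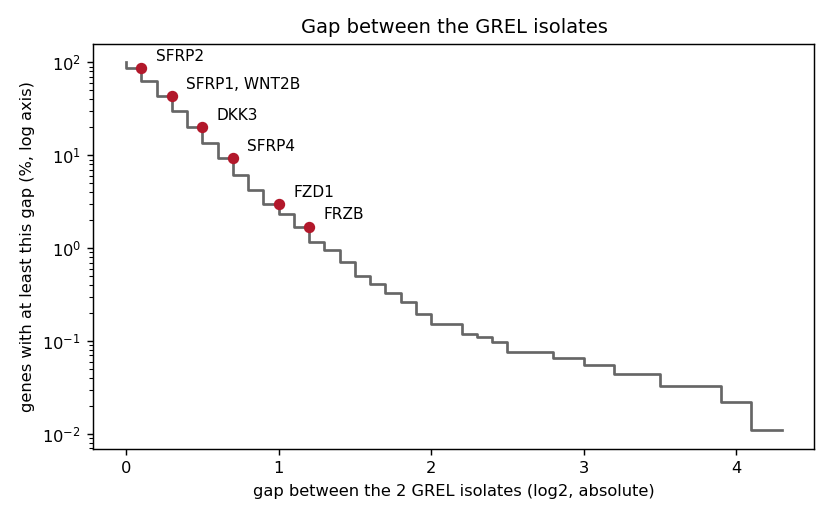
Share of the 9155 genes (vertical axis, percent, log scale) whose 2 GREL isolates lie at least a given log2 distance apart (horizontal axis), with the 7 Wnt genes marked in red. The median gap is 0.2 and the 95th percentile is 0.8. FZD1 (1.0) and FRZB (1.2) lie beyond the 95th percentile and SFRP2 is among the smallest gaps at 0.1.

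The rest of the Wnt pathway was read from lists of other ligands, receptors, modulators, intracellular transducers and target genes, in which 56 of 115 genes had a probe set. Over 3-fold higher in both isolates were 2 of the 56, over 3-fold lower were 3, beside 2.38% of all genes in each direction. The median log2 difference was 0.10. On all 3 arrays 11 of the 56 lay above the background level, and on no array did 41. None of the 56 passed an adjusted p under 0.05 in limma, where the lowest was 0.182.

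Among 3 ligand genes none was over 3-fold different. WLS, which carries Wnt proteins to the cell surface, had log2 values of 7.3 in the fibroblasts and 7.4 in each isolate. The ligand WNT11 was at 2.7, 2.9 and 3.3, and WNT6 at 1.5, 1.6 and 1.6 in the same order, both below the background level.

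Of 5 receptor genes 1 passed 3-fold, in the lower direction. ROR2, a receptor tyrosine kinase for WNT5A, was at 5.9 in the fibroblasts, 3.8 in isolate 1 and 3.4 in isolate 2 (mean difference -2.30 on the log2 scale, limma standard error 0.28, adjusted p = 0.200). Its readings lay below the background level on each array, and the fibroblasts alone exceeded the lower background level, where ROR2 was at least 1.52-fold lower. FZD4, named here after its values were seen, was at 2.5, 3.7 and 3.6 at its brighter probe set, and its dimmer one at 1.3, 1.3 and 1.0 did not show the difference. LRP5, a co-receptor also named after its values were seen, was at 4.1, 3.6 and 3.5 at its brighter probe set. Its dimmer one, at 1.8, 2.0 and 1.9, did not show the difference. All these FZD4 and LRP5 readings lay below the background level.

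Of 13 secreted or membrane modulators 1 passed 3-fold, in the lower direction. RSPO3, an R-spondin that strengthens Wnt signals through LGR receptors, was at 3.5 in the fibroblasts, 1.4 in isolate 1 and 1.6 in isolate 2 (adjusted p = 0.184 in limma), below the background level on every array. The remaining genes of this list were chosen for mention after their values were seen. SFRP5, the fifth frizzled-related gene, was at 4.3, 3.2 and 2.8, which is the direction of SFRP2 and SFRP4 but at dim signal. LGR4, an R-spondin receptor, was at 6.1, 7.2 and 6.5 at its brighter probe set and at 2.6, 3.7 and 3.1 at the other. Like FZD1, it was highest in isolate 1 at both probe sets. RSPO1 was at 3.2, 3.0 and 3.3 at its brighter probe set and at 1.6, 1.6 and 1.9 at the other, all below the background level.

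Of 23 intracellular transducers 1 passed 3-fold, in the higher direction, and the median log2 difference of 0.30 was above that of all genes. Of the 23, 16 lay above the background level on no array, as did 6621 of all 9155 genes. TCF7, a transcription factor of the TCF/LEF family, was at 1.7 in the fibroblasts, 5.2 in isolate 1 and 5.0 in isolate 2. The isolates averaged 3.40 above the fibroblasts on the log2 scale (limma standard error 0.14, adjusted p = 0.182). A second probe set was at 1.1, 3.1 and 2.6. Each of these readings was below the background level, and below the lower background level as well, so the size is uncertain. CTNNB1, which encodes beta-catenin and is named for its role, had values of 8.6 in the fibroblasts and 9.1 in each isolate, above the background level.

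Of 12 target genes 1 was over 3-fold higher and 1 over 3-fold lower. LEF1, which is both a target and a partner of beta-catenin, was at 2.4 in the fibroblasts, 4.6 in isolate 1 and 5.2 in isolate 2 (mean log2 difference 2.50, adjusted p = 0.229 in limma), below the background level throughout. VEGFA, an angiogenic growth factor that responds to many signals, was at 8.7, 6.9 and 5.1, with the isolates 1.8 apart. Both isolates lay below the background level there, at which VEGFA was at least 3.46-fold lower. A second probe set of VEGFA was at 5.1, 3.8 and 2.7, where isolate 1 was less than 3-fold lower. AXIN2, the most general feedback target of beta-catenin and named for that role, was at 3.6, 3.3 and 3.6, also below the background level on every array. Of 12 cell cycle genes 9 were over 3-fold higher in both isolates, beside 2.38% of all genes. Their summed linear signal was 356 in the fibroblasts, 1349 in isolate 1 and 2377 in isolate 2. The background level was exceeded by 1 of the 12 genes for the fibroblasts, by 2 for isolate 1 and by 11 for isolate 2. Only 1 gene exceeded it on every array, so the sizes of these differences are mostly uncertain. The part of the cell cycle genes in the Wnt pathway readings was not tested.

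**Figure D4:**
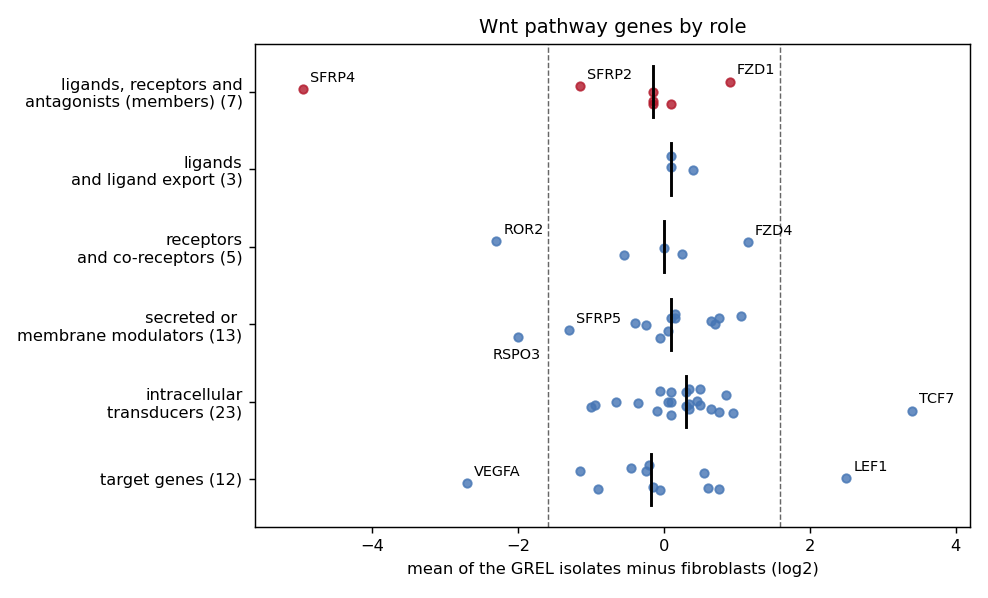
Mean log2 difference of the 2 GREL isolates from the adult fibroblasts (horizontal axis) for each measured Wnt gene (points, 1 value per gene), grouped by role with the number of genes in brackets, the median of each group as a black bar and 3-fold as dashed lines. SFRP4 (-4.95), ROR2 (-2.30), RSPO3 (-2.00) and VEGFA (-2.70) lie beyond 3-fold on the lower side and TCF7 (3.40) and LEF1 (2.50) on the higher side.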

How the data were processed

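RNA from 2 GREL isolates and 1 adult ovarian fibroblast culture was measured on 3 arrays, grouped by the sample titles. The values deposited are log2 intensities after RMA background subtraction with quantile normalization. The submitters' processing notes name Partek 6.5. Values are rounded to 0.1, which makes the isolates identical in 3513 probe sets. All value columns were matched to samples. The table has 24128 probe sets. Without its 112 array controls, 13292 had 1 symbol from the platform annotation of an older date, 86 had several and 10638 were unnamed here. The gene identifier of 13263 was in the current bovine gene table, and 0 of their symbols differed from that table. Coordinates are not printed, as the build behind the array is not given in the sources used here. The order of genes came from the ARS-UCD2.0 gene table.

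Analysis used Python 3.11.15 (pandas 2.3.3, numpy 2.4.6, matplotlib 3.10.9) and R 4.3.3 with limma 3.58.1 (lmFit and eBayes, 1 residual degree of freedom, prior degrees of freedom 0.55). A run on simulated data, with the same spread for every probe set, checked only that added fold changes were returned. It does not bear on the p-values. A difference was counted over 3-fold where both isolates exceeded it. The members and lists were chosen with earlier results of these data known. The text names every member, the genes of other lists over 3-fold in both isolates (or up to 2 with the most consistent difference), and the 3 genes most like a member over 3-fold. Further genes are marked as named for their role or after their values were seen. Array number limits the precision. Other settings were the methods' one-way test, other priors, a filter on dim probe sets, renormalization, the mean over probe sets, further fold thresholds, a lower background level and each isolate alone.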

Additional observations from a re-analysis of the deposited data

How the results depend on the processing

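With a robust prior limma called 571 probe sets higher and 618 lower, against 0 and 0 otherwise. The methods' one-way test on 20503 probe sets, an intensity trend, a repeat of quantile normalization, centring on the median and leaving out dim probe sets each called 0 (186 higher and 208 lower at an unadjusted p under 0.05 in the methods' test). None of the 7 genes passed under the robust prior (adjusted p = 0.135 for SFRP2 and 0.216 for SFRP4) or under the trend.

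SFRP4 was the 1 gene of the 7 over 3-fold lower as measured under both normalization settings and at 5-fold. It is read by 1 probe set and passes the background filters through the fibroblast array alone, so those settings could not change it, and its bound at the background level, 1.99-fold, is under 3-fold. Its measured log2 difference was -5.30 to -4.60 when either isolate was left out, which leaves 1 array against 1 and no test. At 2-fold SFRP2 joined it, giving 2. The median difference of the 7 genes ranged from -0.40 to -0.30 when an isolate was left out. Without isolate 2 the difference of DKK3 became 0.10 and that of FRZB 0.70, and without isolate 1 that of FRZB became -0.50. FZD1 was at 0.40 without isolate 1 and at 1.40 without isolate 2. With the mean over probe sets the difference of DKK3 was -0.5. For the other Wnt genes, the counts over 3-fold (2 higher, 3 lower) were 3 and 5 at 2-fold and 1 and 0 at 5-fold. With the mean over probe sets the counts over 3-fold were 2 and 2, as VEGFA fell short. Among genes above the background level on at least 1 array they were 0 and 1, and at the lower background level 0 and 2. Shares of all genes were not taken for these 5-fold, probe set mean and filtered counts. No paired analysis was possible because the fibroblasts have 1 array, to which the labels give no replicate number.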

Other observations

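The nearest measured protein-coding genes on either side of each member, in the order of the current bovine gene table (ARS-UCD2.0), were read as a further description, chosen after the data were seen. EPDR1, directly beside SFRP4, had log2 values of 7.5 (fibroblasts), 6.3 (isolate 1) and 6.8 (isolate 2), lower in both isolates. On its other side NRCAM, the nearest measured gene with 3 protein-coding genes between, was at 1.3, 1.0 and 1.4. TLR2, near SFRP2, was at 2.8, 2.6 and 3.0, and FGB, on its other side, at 1.5, 1.4 and 1.4. DNAJC10, directly beside FRZB, had values of 6.7 in the fibroblasts and 7.2 in each isolate. NUP35, on the other side of FRZB, was at 4.8, 5.9 and 6.2, higher in both isolates. ST7L, directly beside WNT2B, was at 4.3, 3.4 and 3.0, and CTTNBP2NL, directly on the other side, at 2.7, 2.6 and 3.4. Around SFRP1, TCIM was at 7.4, 8.1 and 6.9 and GOLGA7 at 6.8, 7.0 and 6.9. Around DKK3, BTBD10 was at 5.8, 5.5 and 5.8 and USP47 at 6.3, 6.4 and 6.3. Around FZD1, C4H7orf57 was at 2.6, 2.6 and 2.7 and CYP51A1 at 6.7, 7.5 and 7.1.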
